A study of Mus musculus with 16 samples.

Results

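Interferon response genes are the genes that a cell switches on when interferon, the signal protein released during infection and inflammation, binds its receptor. A set of 38 such genes, listed by name, was followed in mouse skeletal muscle by every non-control probe whose RefSeq accession belongs to one of them. Of these, 36 were matched on the array, through 44 probes, and 35 had a probe bright enough to test among 28964 genes tested in all. Mx1 and Mx2, the Mx GTPases, were not matched and are not analysed here.

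The muscle came from male mice aged 21 to 23 weeks in 4 groups of 4 biological replicates, with 1 single-colour Agilent array for each. WT (Skm-CB1R+/+) mice carried a functional cannabinoid receptor gene, Cnr1, whereas CB1KO (Skm-CB1R-/-) mice carried LoxP-flanked Cnr1 and a Cre recombinase under the ACTA1 promoter, which is active in muscle fibres, so that other cells of the tissue keep the receptor. Mice of both genotypes received for 15 weeks either the standard diet, SD (16.7% of energy from fat and 12.4% from sugar), or HFHS, a diet rich in both (49.2% and 32.2%). The comparisons address whether the muscle receptor and the diet alter expression.

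Groups were assigned by title; source name, description and design text give the same assignment. A diet tag in the labels contradicts the titles for the CB1KO SD and WT HFHS arrays. The growth protocol lists Cre for both genotypes, and the treatment protocol also mentions vehicle and S961 without assigning them to arrays. Which muscle was taken is not given in the sources used here. All SD arrays were on slide 1 and all HFHS arrays on slide 2, and the effects of slide and diet cannot be told apart. WT arrays lay in slide row 1 and CB1KO arrays in row 2 of both slides, so genotype and slide row cannot be told apart either.

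Between 56.7% and 75.04% of the 59305 non-control spots of an array were well above background, and none was saturated. All 10 skeletal muscle markers were well above background on every array. Cnr1 itself did not separate the genotypes: its log2 level ran from -3.64 to -2.03 in WT SD, from -3.69 to -2.23 in CB1KO SD, from -3.18 to -1.75 in WT HFHS and from -2.93 to -1.49 in CB1KO HFHS, and whether its probe lies in the deleted part is not known. The spread of log2 signal over an array was lowest in CB1KO SD replicate 2 (SD 2.89) and highest in CB1KO HFHS replicate 1 (SD 3.97).

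As background, type I interferons signal through the kinases JAK1 and TYK2 to a transcription factor complex that contains STAT2 and IRF9 and binds the interferon-stimulated response element (ISRE) in promoters. Type II interferon, encoded by Ifng, acts on the gamma-activated site (GAS). The induced genes sense foreign nucleic acids, block steps of viral replication and feed peptides to major histocompatibility complex (MHC) molecules. In muscle these genes are known for their high expression in inflammatory myopathies, dermatomyositis above all.

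The promoter stretches of 5 members are shown because the results below turn on them or because they carry the elements most plainly. Bst2 was the member that passed the genotype test, Ubd had the widest diet difference, Isg15 and Ifit1 are classical type I targets, and Gbp2 was among the members furthest above its group in 1 array. Each stretch is the 150 bases before the RefSeq transcript start on build GRCm38.p6, printed 5′ to 3′ on the gene's strand and ending at position -1. Capitals mark ISRE or GAS letters found on either strand. The stretches are chr8:71537473-71537622 (minus strand) for Bst2, chr4:156200819-156200968 (minus) for Isg15, chr19:34640739-34640888 (plus) for Ifit1, chr3:142620513-142620662 (plus) for Gbp2 and chr17:37193742-37193891 (plus) for Ubd.
Bst2: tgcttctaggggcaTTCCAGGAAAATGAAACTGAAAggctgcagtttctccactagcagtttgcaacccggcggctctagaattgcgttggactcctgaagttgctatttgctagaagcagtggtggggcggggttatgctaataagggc
Isg15: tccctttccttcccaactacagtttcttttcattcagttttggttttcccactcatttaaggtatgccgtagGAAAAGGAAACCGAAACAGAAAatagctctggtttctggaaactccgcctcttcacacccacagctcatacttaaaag
Ifit1: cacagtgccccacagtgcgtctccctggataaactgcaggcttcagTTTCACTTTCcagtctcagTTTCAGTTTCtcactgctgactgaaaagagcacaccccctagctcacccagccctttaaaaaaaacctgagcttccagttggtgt
Gbp2: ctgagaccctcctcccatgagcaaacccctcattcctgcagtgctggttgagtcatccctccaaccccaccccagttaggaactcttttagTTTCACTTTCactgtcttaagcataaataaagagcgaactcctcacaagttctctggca
Ubd: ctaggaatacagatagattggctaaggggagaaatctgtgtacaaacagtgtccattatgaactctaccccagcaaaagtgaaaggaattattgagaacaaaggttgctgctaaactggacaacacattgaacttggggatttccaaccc

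The letters searched were GAAA, any 2 bases and again GAAA for the ISRE, and TTCNNNGAA for the GAS, on both strands of the table's windows of 300 bases around the start. In Bst2 the GAS letters began at -136 and overlapped the ISRE letters at -130, which in turn overlapped a further ISRE match at -124. Isg15 held 3 overlapping ISRE matches starting at -78, -72 and -66, Ifit1 held 2 separate ones on the opposite strand starting at -104 and -85, and Gbp2 held 1 at -59. The printed Ubd stretch held neither set of letters. Of the 30 members in the promoter table, 16 (53.3%) held the ISRE letters, against 3.99% of all 27025 genes there. The GAS letters occurred in 9 of the 30 members (30.0%), against 9.55% of all genes. A match is a description of the letters and not evidence of binding, and no match says only that these letters were not in the window.

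One array stood apart before any comparison. CB1KO HFHS replicate 2 held the highest level of all 16 arrays for 27 of the 35 members (77.1%), whereas 3.33% of all genes tested had their highest level there. It was the highest array of its own group for 32 of the 35 members, against 36.8% of all genes. The member levels in it were a median of 0.82 log2 units above the mean of the other 3 arrays of the group, against 0.16 for all genes, and 14 members (12% of all genes) lay more than 1 log2 unit above that mean. The 8 members with their highest level elsewhere were the sensors Ifih1, Dhx58 and Eif2ak2, the transcription factor Irf1, and Trim25, Ifit1, Ubd and Ifi44. Its signal spread (SD 3.44) and its share of spots well above background (69.2%) lay within the range of the other arrays.

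**Figure D1:**
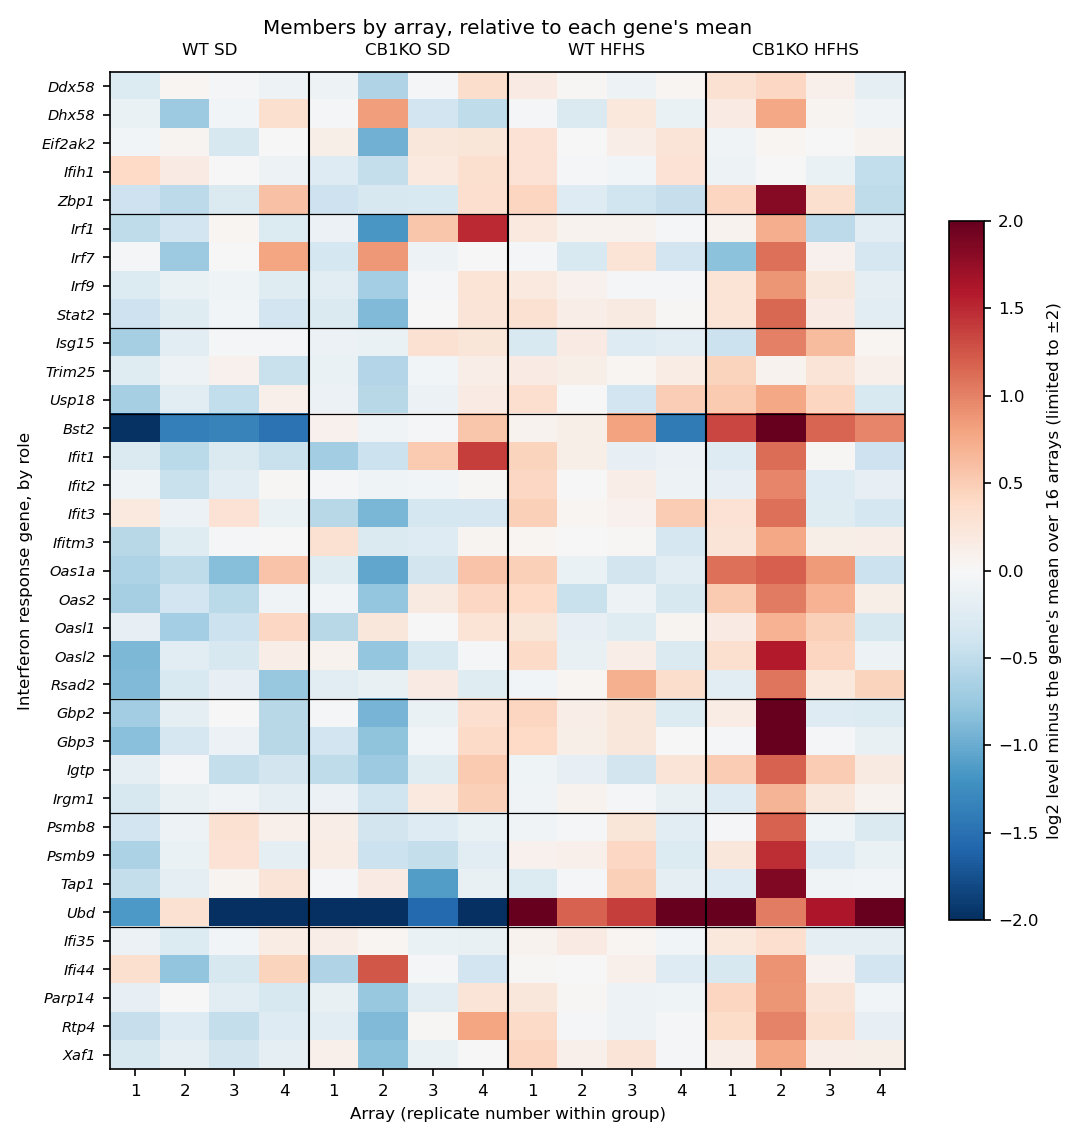
Heat map of the 35 tested members (rows, grouped by role) in each of the 16 arrays (columns, by group), as log2 level minus the gene's mean over all arrays, with colours limited to ±2. CB1KO HFHS replicate 2 is a nearly unbroken red column and holds the highest level of 27 members, and Bst2 and Ubd are the rows with a clear difference between groups.

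**Figure D2:**
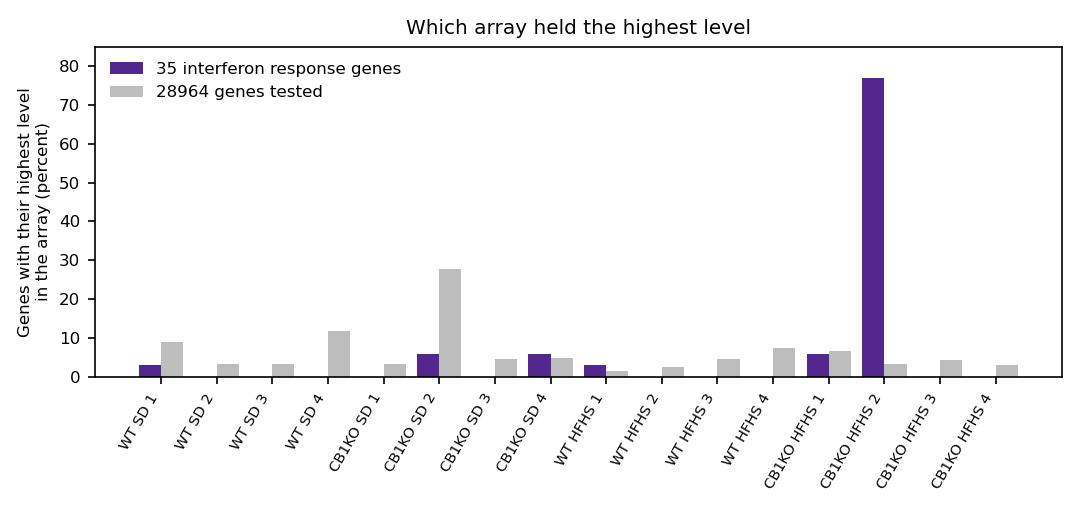
Bar chart of the percent of genes whose highest level over 16 arrays fell in each array, for the 35 members (purple) and for all 28964 genes tested (grey). The purple bar of CB1KO HFHS replicate 2 reaches 77.1% where the grey bar is at 3.33%.

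The same array was also highest for 22 of 47 tested interferon-stimulated genes outside the module and for 9 of 19 antigen presentation genes. It was highest for 0 of 13 interferon ligands, 0 of 13 receptor and JAK-STAT genes, 0 of 16 genes of the induction pathway, 0 of 10 macrophage markers and 0 of 7 T cell markers. With 3.33% of all genes highest there, lists this short can hold none by chance. Median deviations from the gene means over all arrays were 0.352 for ligands and 0.391 for T cell markers in this array. In replicates 1, 3 and 4 of its group they were -0.734, -0.105 and -0.272 for ligands and -0.468, 0.216 and -0.135 for T cell markers. For receptor and JAK-STAT genes (0.109) and macrophage markers (0.242) this array lay below replicate 1 (0.404 and 1.083). Of the skeletal muscle markers it was highest for 2 of 10 and of the plasmacytoid dendritic cell markers for 1 of 5. The summed muscle markers, in multiples of the 75th percentile signal, stood at 5940 in it and at no more than 3686 in the rest of its group. The sums ran from 4487 to 5853 in WT SD, 4147 to 6439 in CB1KO SD and 3564 to 5335 in WT HFHS. Its value was thus within the range of the series, and the part of muscle content in its member levels was not tested. The counts and medians over the members are given below with and without it. Where a single member's difference on HFHS or between diets in CB1KO is printed for the tested probe and moved by over 1.5 times, both values are given. Not every member that it moved so far is listed. Tap1 on HFHS, and Oasl2, Irf9 and Stat2 between diets in CB1KO, are among those left out.

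Levels are log2 processed signals minus the array's 75th percentile, so that 0 is the level of the 75th percentile spot, and a difference of 1 is a doubling on that scale. Probes of different genes are not compared with each other in level. A member was called at a limma adjusted p under 0.05, with the Benjamini-Hochberg adjustment over all genes tested. In bulk muscle, fewer cells of a type and less RNA per cell cannot be told apart. Of the 35 members, 33 were well above background on all 16 arrays. Ubd and Tap1 were so on 11, namely all 8 HFHS arrays and 3 of the 8 SD arrays, and they passed the filter on low signal through the HFHS arrays.

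Between genotypes, averaged over both diets, 1 of the 35 members was higher in CB1KO and none was lower, against 0.311% of all genes tested called higher and 0.452% called lower (0.763% in either direction). The called member was Bst2. At an unadjusted p under 0.05, 2 members were higher, Bst2 and Oas2, and none lower, against 3.74% and 11.3% of all genes. The member differences nonetheless lay mostly on the positive side: 31 of 35 were above 0, with a median of 0.21, whereas 27.9% of all genes were above 0, with a median of -0.13. Without CB1KO HFHS replicate 2, 20 of 35 were above 0 and the median was 0.08. Of the 31 differences above 0, 22 were lower by over 1.5 times, or at or below 0, without it. The count at an unadjusted limma p under 0.05 depended on the setting. Without CB1KO HFHS replicate 2 it was 2 higher and 1 lower. It was 6 higher without CB1KO SD replicate 2, without CB1KO HFHS replicate 4, with array weights or with the deposited scores. Leaving out both CB1KO SD replicate 2 and CB1KO HFHS replicate 1 gave 7 higher. The shares of all genes at these settings are not given.

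Bst2 encodes tetherin, a membrane protein that holds budding virus particles at the cell surface. Its log2 levels were -1.36, -0.76, -0.72 and -0.86 in the WT SD arrays and 0.69, 0.54, 0.59 and 1.16 in the CB1KO SD arrays. On HFHS they were 0.69, 0.73, 1.42 and -0.81 in WT and 1.94, 3.13, 1.77 and 1.59 in CB1KO. Every CB1KO array lay above every WT array of the same diet, and 0.128% of all genes were separated upwards on both diets in this way. WT HFHS replicate 4 stayed at the level of the SD arrays of its genotype, and CB1KO HFHS replicate 2 was the highest of all.

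The averaged difference was 1.64 ± 0.29 (log2, SE, 8 against 8 arrays), a 3.11-fold higher level in CB1KO, with a limma adjusted p of 0.0253. The difference was 1.67 ± 0.42 on SD (limma adjusted p = 0.255) and 1.60 ± 0.42 on HFHS (limma adjusted p = 0.172), and the test of the difference between diets gave -0.06 ± 0.59 (limma adjusted p = 1). Leaving out CB1KO HFHS replicate 2 gave 1.26 on HFHS and -0.40 for the difference between diets. The averaged call rested on several arrays: leaving out WT SD replicate 1, WT SD replicate 3, CB1KO SD replicate 4 or WT HFHS replicate 2 ended it, with limma adjusted p from 0.0560 to 0.0622 and differences of 1.56, 1.67, 1.57 and 1.67. Fitting the replicate number, which equals the slide column on every array, as a block also ended the call.

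Bst2 is also a marker of plasmacytoid dendritic cells in mice and is expressed by activated macrophages. Of the 5 tested plasmacytoid dendritic cell markers other than Bst2, 3 were above 0 in the averaged comparison and none had an unadjusted limma p under 0.05. Their summed level, in multiples of the 75th percentile signal, ran from 121 to 188 in WT SD, 132 to 191 in CB1KO SD, 144 to 183 in WT HFHS and 156 to 205 in CB1KO HFHS. Such a sum is weighted to the brightest marker of the list. Of their number, Siglech and Tcf4 were well above background on all 16 arrays, Ly6d on 15, Ccr9 on 12 and Klk1 on 9. For the macrophage list, 9 of 10 markers were above 0, 2 of them with an unadjusted limma p under 0.05 and none called. The macrophage sums ran from 60.3 to 82.4 in WT SD, 63.2 to 80.9 in CB1KO SD, 67.9 to 83.9 in WT HFHS and 75.4 to 106 in CB1KO HFHS. The part of these cells in the Bst2 difference was not tested.

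**Figure D3:**
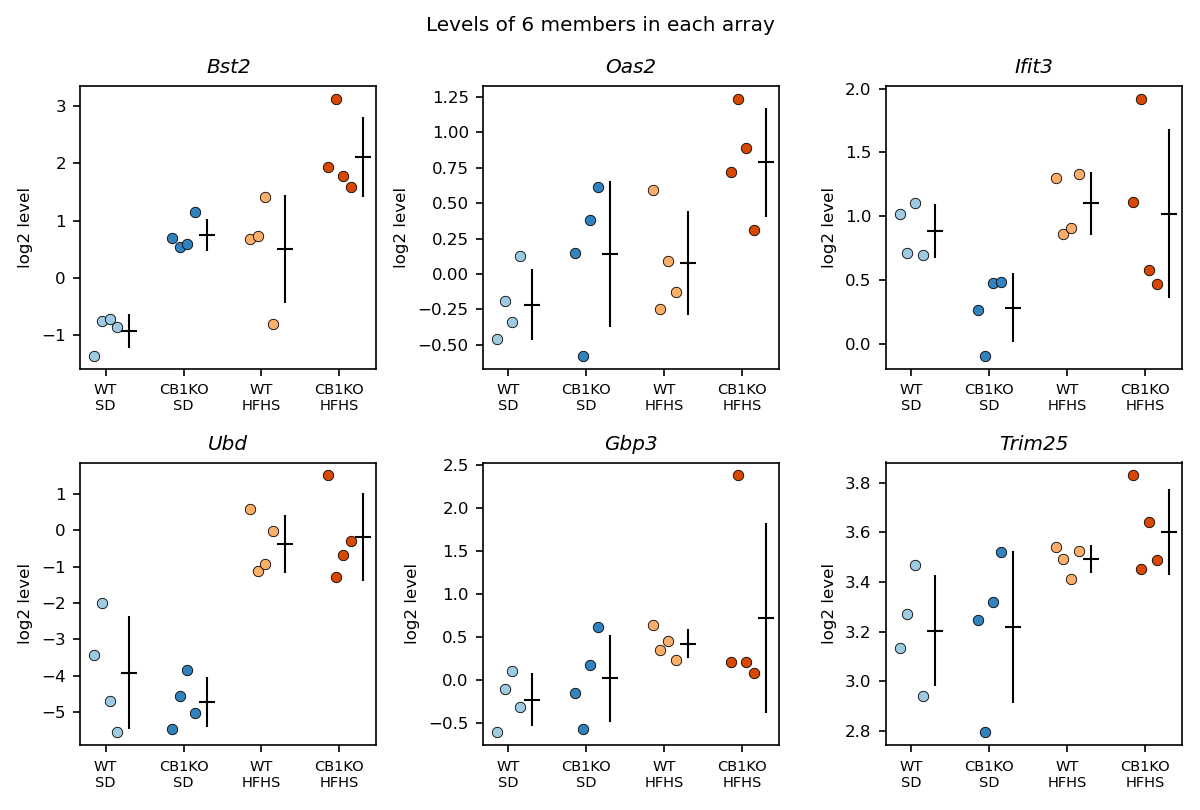
Log2 level of 6 members in each array (circles, 4 per group), with the group mean and SD (black bar) beside them; each panel has its own vertical scale. Bst2 separates the genotypes on both diets, Ubd separates the diets in both genotypes, Ifit3 is lower in CB1KO on SD, and the single high CB1KO HFHS circle of Gbp3 at 2.38 is replicate 2.

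The other antiviral effectors were measured through 9 tested genes beside Bst2. Oas2, an oligoadenylate synthetase whose product activates RNase L, was at -0.46, -0.19, -0.34 and 0.12 in WT SD and at 0.15, -0.58, 0.38 and 0.62 in CB1KO SD. On HFHS it was at 0.59, -0.24, 0.09 and -0.12 in WT and at 0.72, 1.24, 0.89 and 0.31 in CB1KO. The genotypes overlapped on both diets, on SD through the low CB1KO replicate 2 and on HFHS through WT replicate 1 and CB1KO replicate 4. The averaged difference of 0.53 ± 0.19 did not pass after adjustment (limma adjusted p = 0.207), and it was 0.71 ± 0.27 on HFHS (limma adjusted p = 0.412). Leaving out CB1KO HFHS replicate 2 gave 0.46 averaged over the diets.

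Ifitm3, which blocks fusion of viral and endosomal membranes, was at 3.75, 3.70, 3.72 and 3.37 in WT HFHS and at 3.96, 4.48, 3.81 and 3.84 in CB1KO HFHS. These groups did not overlap, with WT replicate 4 lowest and CB1KO replicate 2 highest. On SD its levels were 3.15, 3.46, 3.67 and 3.69 in WT and 4.01, 3.42, 3.45 and 3.75 in CB1KO, and the groups overlapped. The difference was 0.39 ± 0.19 on HFHS (limma adjusted p = 0.554) and 0.27 ± 0.13 averaged over the diets (limma adjusted p = 0.352). These were 0.24 and 0.20 without CB1KO HFHS replicate 2.

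Oas1a, a relative of Oas2, was at 0.13, -0.49, -0.72 and -0.56 in WT HFHS and at 0.75, 0.84, 0.50 and -0.78 in CB1KO HFHS. CB1KO replicate 4 was the lowest of the 8 arrays and the other 3 were above every WT array, so the groups overlapped. Its difference of 0.74 ± 0.41 on HFHS did not pass the limma test (adjusted p = 0.621). The second, dimmer Oas1a probe gave 1.04 ± 0.40 on HFHS, which did not pass either (limma adjusted p over probes = 0.435). Oasl1 and Oasl2, the related synthetase-like genes, differed by 0.28 ± 0.27 and 0.54 ± 0.33 on HFHS and did not pass either; without that replicate 2 of CB1KO the values were 0.14 and 0.19. Oas3 was not tested, because it was well above background on only 3 arrays. It was at -1.31 in CB1KO SD replicate 2 and at -5.03, -5.25 and -5.62 in the rest of that group.

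On SD alone, 0 of 35 members were called by limma, against 0.00345% of all genes called in either direction. At an unadjusted p under 0.05, 1 member was higher (Bst2) and 1 lower (Ifit3), against 2.18% and 6.85% of all genes. The median member difference was 0.08, with 25 of 35 above 0, beside a median of -0.12 for all genes, of which 32.1% were above 0. This rested in part on CB1KO SD replicate 4, without which 17 of 35 were above 0 and the median was -0.0077; the median was 0.05 without WT SD replicate 1 or 2, 0.19 without CB1KO SD replicate 2 and 0.22 without WT SD replicate 4. The groups did not overlap upwards for Bst2 and downwards for Ifit3, where 1.03% and 3.18% of all genes were separated.

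Ifit3 encodes a partner of the RNA-binding IFIT1 protein. It was at 1.02, 0.71, 1.11 and 0.69 in WT SD and at 0.26, -0.09, 0.47 and 0.49 in CB1KO SD. All 4 CB1KO arrays lay below all 4 WT arrays, a difference of -0.60 ± 0.27 (limma adjusted p = 0.536). On HFHS it was at 1.30, 0.86, 0.91 and 1.33 in WT and at 1.11, 1.92, 0.58 and 0.47 in CB1KO, where replicate 2 was the highest and the groups overlapped (-0.08 ± 0.27). The change of the genotype difference with diet, 0.52 ± 0.38, did not pass the limma test (adjusted p = 1). Without CB1KO HFHS replicate 2 the HFHS difference was -0.38 and the change with diet 0.22. Ifit3b, a close copy of Ifit3 outside the module whose transcripts the Ifit3 probe may also bind, differed by -0.48 ± 0.21 averaged over the diets (limma adjusted p = 0.318).

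Ifit1, which binds viral RNA lacking host cap marks, was at -2.20, -2.45, -2.21 and -2.37 in WT SD and at -2.61, -2.34, -1.40 and -0.53 in CB1KO SD. Its CB1KO SD level was thus high in replicates 3 and 4 and within or below the WT range in replicates 1 and 2, and the difference of 0.59 ± 0.41 did not pass (limma adjusted p = 0.743). Ifit2 was at -0.83 in CB1KO HFHS replicate 2 and at -1.97, -2.06 and -1.97 in the other arrays of that group. Its genotype differences were 0.14 ± 0.23 on SD and -0.01 ± 0.23 on HFHS, the latter -0.30 without that array.

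Rsad2, encoding viperin, which makes a chain-terminating nucleotide, was at -1.13, -0.54, -0.41 and -0.99 in WT SD and at -0.46, -0.39, -0.08 and -0.48 in CB1KO SD. WT HFHS arrays were at -0.30, -0.20, 0.46 and 0.10, and CB1KO HFHS arrays at -0.46, 0.83, -0.04 and 0.21. The genotypes overlapped on both diets, with differences of 0.42 ± 0.26 on SD (limma adjusted p = 0.703) and 0.12 ± 0.26 on HFHS, where leaving out CB1KO replicate 2 gave -0.11. All WT HFHS arrays lay above all WT SD arrays.

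On HFHS, 0 of 35 members were called by limma, against 0.176% of all genes called higher and 0.0725% called lower. At an unadjusted p under 0.05, 3 members were higher, Bst2, Oas2 and Igtp, and none lower, against 3.42% and 5.98% of all genes. Bst2 and Ifitm3 were separated upwards and none downwards, where 3.16% and 6.93% of all genes were. The median member difference was 0.25, with 29 of 35 above 0, beside a median of -0.14 for all genes, of which 31.4% were above 0. Without CB1KO HFHS replicate 2 the member median was 0.05 (all genes -0.17), 18 of 35 were above 0 and 1 had an unadjusted p under 0.05. Without CB1KO HFHS replicate 4 instead, 33 of 35 were above 0 and 8 were higher at an unadjusted limma p under 0.05.

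**Figure D4:**
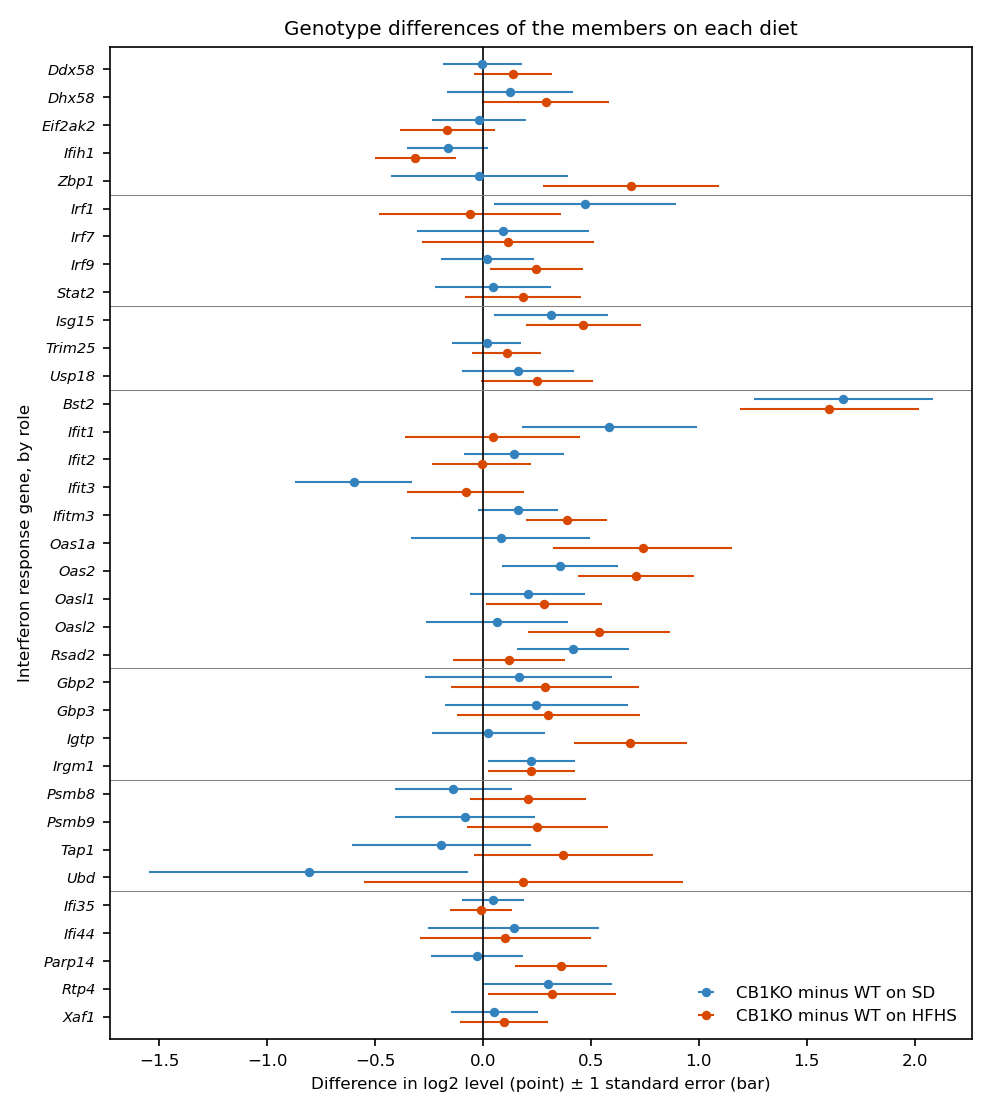
Difference in log2 level between CB1KO and WT for each of the 35 tested members on SD (blue) and on HFHS (orange), with bars of 1 standard error from the limma fit (4 against 4 arrays each). Bst2 stands at 1.67 and 1.60, Ifit3 lies at -0.60 on SD, and the bars of most other members reach 0 on at least 1 diet.

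Among the interferon-inducible GTPases, which attack the membranes around intracellular pathogens, Igtp (Irgm3) had the largest genotype difference on HFHS. Its levels were 2.31, 2.24, 2.03 and 2.66 in WT HFHS and 2.91, 3.57, 2.90 and 2.58 in CB1KO HFHS. WT replicate 4 and CB1KO replicate 4 overlapped, and CB1KO replicate 2 was highest. On SD it was at 2.21, 2.36, 1.92 and 2.04 in WT and at 1.89, 1.67, 2.15 and 2.91 in CB1KO, where the ranges overlapped.

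The Igtp difference was 0.68 ± 0.26 on HFHS (limma adjusted p = 0.417) and 0.02 ± 0.26 on SD. The change between diets was 0.66 ± 0.37, the smallest p of the members in that test (limma adjusted p = 1). The HFHS difference was 0.49 without CB1KO HFHS replicate 2. Irgm1, a regulator of this family, differed by 0.22 ± 0.20 on SD and 0.22 ± 0.20 on HFHS, and by 0.06 on HFHS without the same array. Averaged over the diets it differed by 0.22 ± 0.14, and its second, dimmer probe by 0.34 ± 0.14 (limma adjusted p over probes = 0.269).

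The guanylate-binding proteins Gbp2 and Gbp3 departed furthest in CB1KO HFHS replicate 2. Gbp2 was at 1.21, 3.09, 0.80 and 0.79 in CB1KO HFHS and at 1.49, 1.19, 1.28 and 0.79 in WT HFHS. Gbp3 was at 0.21, 2.38, 0.21 and 0.08 in CB1KO HFHS and at 0.63, 0.35, 0.45 and 0.23 in WT HFHS. In both genes CB1KO replicate 2 alone exceeded the WT range. With it the HFHS differences were 0.29 ± 0.43 for Gbp2 and 0.30 ± 0.42 for Gbp3. Without it they were -0.25 for each.

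The ISG15 system attaches the ubiquitin-like protein ISG15 to other proteins. Isg15 itself was at -1.14, -0.70, -0.52 and -0.50 in WT SD and at -0.59, -0.61, -0.17 and -0.23 in CB1KO SD. On HFHS it was at -0.78, -0.31, -0.74 and -0.69 in WT and at -0.91, 0.54, 0.15 and -0.44 in CB1KO. The genotypes overlapped on both diets, and CB1KO HFHS replicates 2 and 3 lay above every other array.

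Isg15 differed by 0.39 ± 0.19 averaged over the diets (limma adjusted p = 0.353). Without CB1KO HFHS replicate 2 that value was 0.27, and the HFHS difference was 0.23. Its second, dimmer probe differed by -0.04 ± 0.33 in the same comparison and by -0.50 ± 0.47 on HFHS, where the brighter probe gave 0.46 ± 0.27, so the probes disagreed in sign. Usp18, the protease that removes ISG15 and restrains receptor signalling, differed by 0.21 ± 0.18 averaged over the diets. Trim25, a ubiquitin ligase that activates RIG-I, differed by 0.06 ± 0.11.

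Of the 5 sensors, 3 were above 0 and 2 below in the averaged comparison, and none passed the test. Ifih1 (MDA5), which detects long double-stranded RNA, was at 0.19, -0.05, -0.22 and -0.31 in WT SD and at -0.47, -0.68, -0.01 and 0.12 in CB1KO SD. On HFHS it was at 0.08, -0.23, -0.25 and 0.08 in WT and at -0.32, -0.21, -0.35 and -0.70 in CB1KO, where 3 of the 4 CB1KO arrays lay below every WT array. Its averaged difference of -0.24 ± 0.13 did not pass (limma adjusted p = 0.420).

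Ddx58 (RIG-I), which detects short RNA ends, differed by 0.07 ± 0.13, its regulator Dhx58 (LGP2) by 0.21 ± 0.21 and Eif2ak2 (PKR), the kinase that halts translation on double-stranded RNA, by -0.09 ± 0.15 over both diets. Zbp1, a sensor of Z-form nucleic acids that can trigger cell death, was at -1.68, -0.28, -1.78 and -2.61 in CB1KO HFHS and at -1.67, -2.35, -2.50 and -2.57 in WT HFHS. Replicate 2 was the only CB1KO array above the WT range. The Zbp1 difference on HFHS was 0.69 ± 0.41 with all arrays and 0.25 without that array, and the second probe gave -0.63 ± 0.65.

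None of the 4 transcription factors passed the genotype test. Stat2 differed by 0.12 ± 0.19, Irf9 by 0.13 ± 0.15, Irf1 by 0.21 ± 0.30 and Irf7 by 0.10 ± 0.28 over both diets, with limma adjusted p from 0.696 to 0.878. Irf1, a target of type II interferon, was the most spread of these on SD: its CB1KO SD levels were 2.19, 1.16, 2.87 and 3.80, against 1.80, 1.93, 2.35 and 2.04 in WT SD. CB1KO SD replicate 4 was the highest and replicate 2 the lowest of all 16 arrays for Irf1. Replicate 2 of CB1KO SD was the lowest of the 16 arrays for 15 of the 35 members, beside 23.8% of all genes, and it is the array of lowest signal spread.

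The members of antigen processing were the immunoproteasome subunits Psmb8 and Psmb9, the peptide transporter Tap1 and Ubd. Psmb9 was at 0.75, 0.77, 1.08 and 0.40 in WT HFHS and at 0.90, 2.15, 0.42 and 0.54 in CB1KO HFHS. Psmb8 was at 0.89, 0.92, 1.21 and 0.75 in WT HFHS and at 0.91, 2.14, 0.87 and 0.67 in CB1KO HFHS. For both subunits, as for the GTPases Gbp2 and Gbp3, CB1KO replicate 2 alone exceeded the WT range. The HFHS differences were 0.25 ± 0.33 for Psmb9 and 0.21 ± 0.27 for Psmb8 with all arrays, and -0.13 and -0.12 without that array. Tap1 was at -1.93 in the same array and at -4.04, -3.86 and -3.83 in the rest of its group.

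Between diets, 0 of 35 members were called by limma in WT, where 0 genes were called in all (0%). At an unadjusted p under 0.05, 4 members were higher on HFHS, Ubd, Bst2, Rsad2 and Xaf1, and none lower, against 2.11% and 3.96% of all genes. Of the 35 differences, 33 were above 0 and the median was 0.25, while the median of all genes was -0.06 with 41% above 0. The groups were separated upwards for 8 members, namely Ubd, Rsad2, Xaf1, Stat2, Gbp3, Rtp4, Ifit1 and Irf9, and downwards for none, where 2.04% and 3.36% of all genes were. Ubd, included in both counts, passed the filter on low signal through the HFHS arrays. At an unadjusted p under 0.05 the number was 9 when only the WT arrays entered the fit and 6 without CB1KO SD replicate 2 or without CB1KO HFHS replicate 2. Every diet difference is also a difference between the 2 slides.

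In CB1KO, 0 of 35 members were called by limma, against 0.0138% of all genes called higher and 0.0138% called lower (0.0276% in either direction). At an unadjusted p under 0.05, 11 members were higher on HFHS and none lower, against 5.37% and 4.23% of all genes. The 11 were Ubd, Bst2, Igtp, Parp14, Ifit3, Oasl2, Xaf1, Trim25, Oas2, Oas1a and Irf9. Ubd, Bst2 and Xaf1 were separated upwards and none downwards, where 2.48% and 1.25% of all genes were. Here too the counts include Ubd, which passed the filter through the HFHS arrays. The median difference was 0.46, with 31 of 35 above 0, beside -0.07 for all genes with 40.6% above 0. Some marker lists of other cells lay mostly above 0 in the same comparison: 10 of 10 macrophage markers (median 0.42), 6 of 6 fibroblast markers (median 0.53), 4 of 5 adipocyte markers (median 1.88) and 5 of 5 plasmacytoid dendritic cell markers (median 0.15), none called. So did 3 of 4 B cell markers (median 0.68). Other lists did not: 4 of 7 endothelial (median 0.003), 3 of 7 T cell (-0.06), 1 of 3 NK cell (-0.02) and 1 of 5 neutrophil markers (-0.43) were above 0. Of the 10 muscle markers 1 was above 0 (median -0.16), and the part of these cells in the member differences was not tested.

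Without CB1KO HFHS replicate 2, the number with an unadjusted p under 0.05 was 4 (Ubd, Bst2, Igtp and Trim25), the median was 0.20 against -0.10 for all genes, and 26 of 35 were above 0. The number was also 4 without CB1KO SD replicate 2, 3 when only the CB1KO arrays entered the fit, and 3 higher with 1 lower under array weights, and it reached 16 with the deposited scores. The WT and CB1KO diet differences were not shown to differ: 0 members were called in the interaction test, where 0 of all genes were called (0%), and 0 members had an unadjusted limma p under 0.05, against 2.10% and 1.53% of all genes in the positive and negative directions. The interaction median of the members was 0.12 with all arrays and -0.07 without that array.

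**Figure D5:**
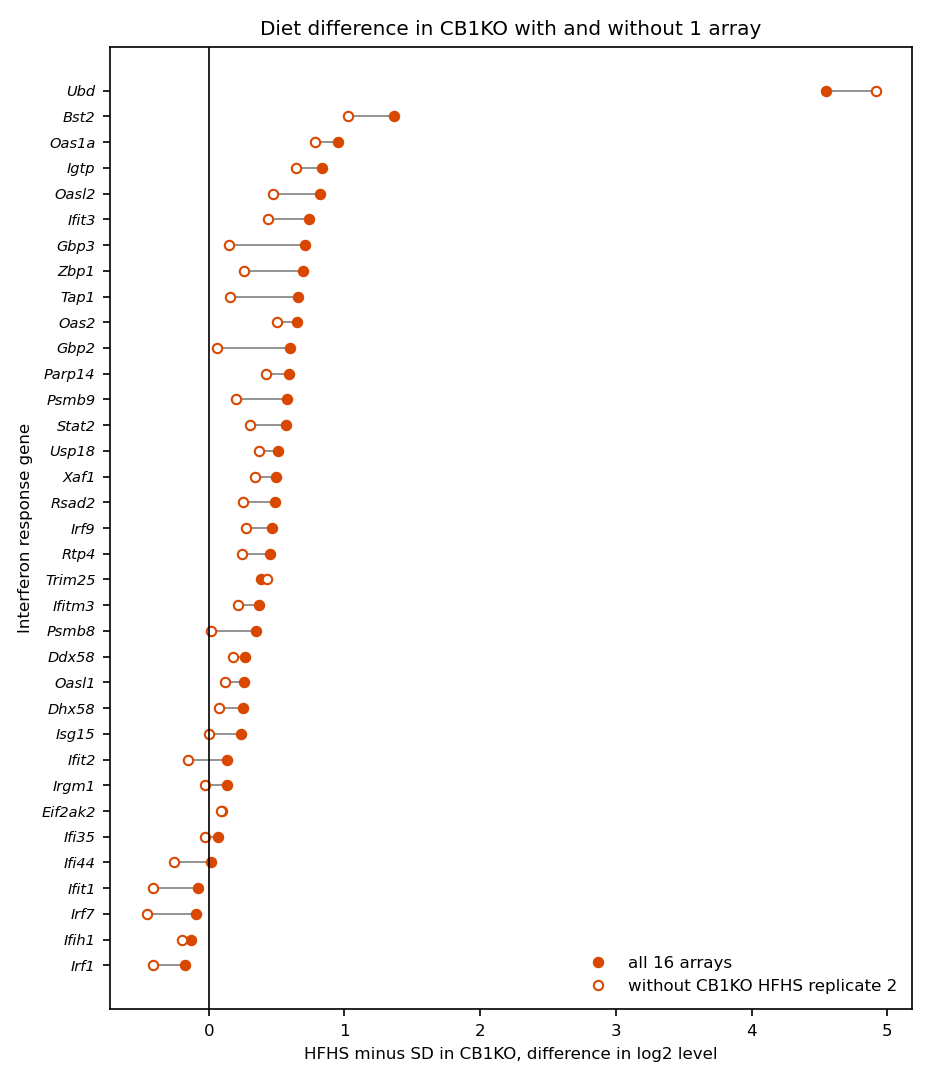
HFHS minus SD difference in log2 level within CB1KO for each of the 35 tested members, with all 16 arrays (filled) and without CB1KO HFHS replicate 2 (open), ordered by the filled value. Most open points lie to the left of the filled ones, the median moves from 0.46 to 0.20, and Ubd lies to the right, at fitted values of 4.55 and 4.91 that rest on SD levels near the floor.

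Ubd encodes FAT10, a ubiquitin-like protein that marks proteins for the proteasome and is induced by interferon gamma together with tumour necrosis factor. It was at -3.44, -1.99, -4.70 and -5.56 in WT SD and at -5.47, -4.56, -3.85 and -5.03 in CB1KO SD. On HFHS it was at 0.59, -1.12, -0.92 and -0.02 in WT and at 1.52, -1.28, -0.68 and -0.28 in CB1KO. In both genotypes every HFHS array lay above every SD array. On SD it was well above background in 2 of 4 WT and 1 of 4 CB1KO arrays, so the SD levels are close to the floor of the measurement, and Ubd passed the filter on low signal through the HFHS arrays.

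With each SD array at the higher of its lowest well-measured signal and the Ubd probe's own, Ubd was at least 7.34-fold higher on HFHS in WT and at least 12.4-fold higher in CB1KO. The fitted differences, 3.55 ± 0.74 in WT (limma adjusted p = 0.391) and 4.55 ± 0.74 in CB1KO (limma adjusted p = 0.0694), use the SD values near the floor and are no measured size. Neither passed the adjustment over all genes, and these p rest on the same SD values, so they are no test of the difference. Leaving out WT SD replicate 2, the highest of the SD arrays, brought the CB1KO limma adjusted p to 0.0327. That array is not in the CB1KO comparison and enters its p through the shared spread. Between genotypes on HFHS Ubd differed by 0.19 ± 0.74, and by 0.55 without CB1KO replicate 2. Unlike most members, Ubd was not raised in CB1KO HFHS replicate 2, where it was the lowest of the group.

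Bst2 was the member with the next largest diet difference, 1.43 ± 0.42 in WT (limma adjusted p = 0.639) and 1.37 ± 0.42 in CB1KO (limma adjusted p = 0.262). In CB1KO the diets did not overlap, and in WT they overlapped through HFHS replicate 4. The CB1KO value was 1.03 without CB1KO HFHS replicate 2. The Rsad2 diet difference was 0.78 ± 0.26 in WT (limma adjusted p = 0.656) and 0.49 ± 0.26 in CB1KO (limma adjusted p = 0.574), the latter 0.26 without the same array.

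Igtp, with the levels given above, differed between diets by 0.83 ± 0.26 in CB1KO (limma adjusted p = 0.279) and by 0.18 ± 0.26 in WT. Ifit3 differed by 0.74 ± 0.27 in CB1KO (limma adjusted p = 0.384) and by 0.22 ± 0.27 in WT. Without CB1KO HFHS replicate 2 these CB1KO values were 0.64 and 0.44. Neither gene passed the test of the change between genotypes.

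Xaf1, an antagonist of an inhibitor of apoptosis, was at -0.51, -0.36, -0.55 and -0.39 in WT SD and at 0.24, -0.09, 0.06 and -0.22 in WT HFHS. In CB1KO it was at -0.10, -1.01, -0.32 and -0.19 on SD and at -0.06, 0.58, -0.06 and -0.08 on HFHS. The diets did not overlap in either genotype, although in CB1KO the gap between SD replicate 1 and HFHS replicate 4 was narrow. The difference was 0.45 ± 0.20 in WT (limma adjusted p = 0.806) and 0.50 ± 0.20 in CB1KO (limma adjusted p = 0.442).

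Parp14, an ADP-ribosyltransferase, was at 1.16, 0.55, 1.10 and 1.57 in CB1KO SD and at 1.73, 2.19, 1.57 and 1.26 in CB1KO HFHS. In WT it was at 1.14, 1.29, 1.08 and 0.98 on SD and at 1.54, 1.34, 1.20 and 1.22 on HFHS. The diets overlapped in both genotypes, in CB1KO through the high SD replicate 4. Its difference was 0.59 ± 0.21 in CB1KO (limma adjusted p = 0.377) and 0.20 ± 0.21 in WT.

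Trim25 was at 3.13, 3.27, 3.47 and 2.94 in WT SD and at 3.54, 3.49, 3.41 and 3.52 in WT HFHS. In CB1KO it was at 3.25, 2.79, 3.32 and 3.52 on SD and at 3.83, 3.45, 3.64 and 3.49 on HFHS. The diets overlapped in both genotypes, and the HFHS arrays of WT lay close together. The difference was 0.29 ± 0.16 in WT (limma adjusted p = 0.899) and 0.38 ± 0.16 in CB1KO (limma adjusted p = 0.458), and without CB1KO HFHS replicate 2 the latter was 0.43.

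None of the remaining members of mixed function passed the genotype test. Ifi35 differed by 0.02 ± 0.10, Ifi44 by 0.12 ± 0.28, and Rtp4, a chaperone of receptor trafficking, by 0.31 ± 0.21 over both diets. Rtp4 was at 0.66, 0.86, 0.65 and 0.86 in WT SD and at 1.51, 1.10, 1.03 and 1.10 in WT HFHS, so that the diets did not overlap in WT. That diet difference was 0.43 ± 0.30 (limma adjusted p = 0.950). Stat2 showed the same arrangement, at 0.21, 0.40, 0.57 and 0.24 in WT SD and 0.93, 0.77, 0.80 and 0.65 in WT HFHS, with a difference of 0.43 ± 0.27 (limma adjusted p = 0.931).

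The rest of the pathway was followed through 5 lists with 108 genes tested, none of which was called in any of the 6 comparisons by limma. At an unadjusted limma p under 0.05 there were 21 of 108 (19.4%, against 15.0% of all genes) in the averaged genotype comparison, 7 on SD (6.5% against 9.0%), 15 on HFHS (13.9% against 9.4%) and 7 in the interaction (6.5% against 3.6%). Between diets there were 4 in WT (3.7% against 6.1%) and 29 in CB1KO (26.9% against 9.6%). In the averaged comparison 14 of the 21 were higher and 7 lower in CB1KO.

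Among the 13 tested ligands, Ifng was well above background on exactly the 4 CB1KO HFHS arrays and on no other array, which is also why it passed the filter on low signal. Its levels there were -4.67, -3.91, -3.47 and -3.77, against -5.30, -5.05, -5.43 and -6.46 in WT HFHS. None of these WT values was well above background, so whether the groups overlap cannot be told. The lowest well-measured signals of WT HFHS replicates 3 and 4, -4.62 and -4.30, lay above the CB1KO HFHS replicate 1 level. Because Ifng was not well above background in WT HFHS, the difference is given as a bound: CB1KO was at least 1.78-fold higher on HFHS. The bound takes in each WT array the higher of the lowest well-measured signal and the probe's own. The measured group means (-3.96 and -5.56) and the limma adjusted p of 0.222 rest on WT values below that background, so they are no measured size or test of it. CB1KO HFHS replicate 2 was not the highest of its group for Ifng. Ifnb1, the type I interferon of most cell types, was well above background on all 4 WT HFHS arrays, on 1 CB1KO HFHS array and on no SD array. The share of all spots well above background was also highest in WT HFHS replicates 1 to 3 (75.04%, 74.86% and 74.14%). It was 62.4% in replicate 4. Ifna13, another dim ligand, was well above background on 4 WT HFHS, 1 CB1KO HFHS, 2 WT SD and no CB1KO SD arrays. The part of this wider detection in the Ifnb1 counts was not tested.

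Among receptors and JAK-STAT genes, Socs3, a feedback inhibitor of cytokine receptors, had the largest averaged difference, 1.26 ± 0.49 (limma adjusted p = 0.244). By diet it was 2.24 ± 0.69 on SD (limma adjusted p = 0.338) and 0.28 ± 0.69 on HFHS, and the change of -1.96 ± 0.97 did not pass (limma adjusted p = 1). Jak2 differed by -0.35 ± 0.14 (limma adjusted p = 0.268) and Ifngr2, a chain of the interferon gamma receptor, by -0.20 ± 0.09 (limma adjusted p = 0.306). In the induction pathway, Irf8 differed by 0.43 ± 0.14 (limma adjusted p = 0.183) and Sting1, the adaptor of cytosolic DNA sensing, by 0.38 ± 0.15 (limma adjusted p = 0.248).

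Among 47 interferon-stimulated genes outside the module, the smallest p in the averaged comparison belonged to Gbp6, Slfn5, Ifi204 and Cxcl10. Gbp6, a relative of Gbp2, was at -1.24, -0.84, -0.83 and -1.37 in WT SD and at 0.35, -0.17, 0.02 and -0.08 in CB1KO SD. On SD its groups did not overlap, whereas on HFHS they did, at 0.21, -0.12, 0.33 and -0.38 in WT and -0.67, 0.78, 0.48 and 0.02 in CB1KO. Its averaged difference was 0.62 ± 0.19 (limma adjusted p = 0.152). Cxcl10, a chemokine that attracts T cells, differed by 1.12 ± 0.39 (limma adjusted p = 0.195), Slfn5 by 0.71 ± 0.24 and Ifi204 by 0.67 ± 0.22.

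Among 19 antigen presentation genes, genes of MHC class II had the smallest p between genotypes on HFHS. Of the 19, 4 were higher at an unadjusted limma p under 0.05 on HFHS, against 3.42% of all genes. Upwards separation on HFHS held for 4, against 3.16% of all genes. On SD, 5 of 19 were above 0, with a median of -0.06 and a largest value of 0.23, and 0 had such a p. Cd74 and H2-Aa, given here, were added after their values were seen. Cd74, the invariant chain that accompanies class II molecules, was at 4.13, 3.88, 3.70 and 3.53 in WT HFHS and at 5.20, 5.16, 5.03 and 4.75 in CB1KO HFHS, with no overlap. H2-Aa, a class II chain, was at 0.36, -0.41, -0.30 and -0.13 in WT HFHS and at 1.67, 1.39, 1.07 and 0.80 in CB1KO HFHS, also with no overlap. Here CB1KO replicate 2 was not the highest of its group. The HFHS differences were 1.22 ± 0.36 for Cd74 (limma adjusted p = 0.247) and 1.36 ± 0.38 for H2-Aa (limma adjusted p = 0.214). Class II genes are expressed by macrophages and dendritic cells, and the summed macrophage markers, given above, were highest in CB1KO HFHS, with 106 in replicate 1. The part of those cells in these differences was not tested.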

How the data were processed

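RNA of 16 muscles was measured on 1-colour (Cy3) Agilent arrays. The deposited scanner intensity values were made by the authors with Agilent Feature Extraction 11.5.1.1, per the file headers, as background-corrected processed signals. The deposited value table holds a score, the authors' z-score within each array, and served as an alternative. From the intensities, log2 processed signal minus each array's 75th percentile was computed, outlier-flagged spots were left out, repeated spots averaged, dim probes dropped unless 4 or more of the 16 arrays had them well above background, and the brightest probe taken per gene. Genes were matched through RefSeq accessions. limma 3.58.1 in R 4.3.3 fitted 1 mean per group over all 16 arrays, and was tested on simulated data. Comparisons numbered 6, two-sided, at an adjusted p of 0.05. Alternatives changed the normalization, background correction, filter, probe choice, variance model and array weights, or left out single arrays. The precision is limited by 4 arrays per group. Members in full are those called or among the 5 smallest p per comparison, with pathway genes chosen by smallest p (up to 4 per list); Gbp2, Gbp3, Psmb8, Psmb9, Tap1, Irf1, Ifih1, Stat2, Rtp4 and the class II genes were added after their values were seen. Members and lists were chosen with earlier results of these data known. A gene of the pathway lists is not reported here. Nothing in the labels pairs replicate numbers.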

Additional observations from a re-analysis of the deposited data

Results flagged for a closer look

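In 10 of 144 sets of 4 arrays (36 matched members in 4 groups), 1 array's gap to its nearest neighbour was large for the group's range by Dixon's test; chance gives this in about 1 of 20 sets. CB1KO HFHS replicate 2 accounted for 5 of them, each as the highest array. Its log2 levels were 2.38 for Gbp3 (nearest array 0.21), 2.14 for Psmb8 (0.91), -1.93 for Tap1 (-3.83), 0.58 for Xaf1 (-0.06) and -0.83 for Ifit2 (-1.97).

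In CB1KO SD, replicate 2 was at -1.31 for Oas3 where the nearest array was at -5.03, and at -2.46 for Eif2ak2 where the nearest was at -1.38. Zbp1 was at -1.77 in CB1KO SD replicate 4 (nearest -2.41). In WT HFHS, Ifitm3 was at 3.37 in replicate 4 (nearest 3.70) and Rtp4 at 1.51 in replicate 1 (nearest 1.10).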

How the results depend on the processing

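The interferon member calls depended on the setting. In the averaged genotype comparison the 1 called member became 2 with array weights (Bst2 and Oas2), 0 with the replicate number as a block, and 0 to 1 when single arrays were left out; the limma adjusted p of Bst2 ran from 0.00883 to 0.0622 over its alternatives, and its block value was 0.0593. With array weights, 2 members were called on HFHS (Bst2 and Oas2), 1 between diets in CB1KO and 1 in WT (Ubd in both). Leaving out single arrays gave 0 to 1 in CB1KO, and the limma adjusted p of Ubd there ran from 0.0253 to 0.535. The Ubd calls rest on SD levels near the floor and are no test of its diet difference. On SD and in the interaction, 0 members were called under every alternative run. The Bst2 interaction changed sign between leave-one-out fits, from -0.50 to 0.24, and the cause was not tested. For Zbp1 the interaction ran from 0.27 to 1.04 in those fits and changed sign, to -0.24, with the mean of the gene's probes. The brighter Zbp1 probe gave 0.70 and the dimmer one -1.19. All-gene counts moved widely: 221 averaged calls became 59 with the block and 1982 with array weights, 72 on HFHS became 36 and 2124, 8 in CB1KO became 0 and 137, and 1 on SD and 0 in WT became 48 and 91 with array weights. Correlations of same-numbered deviations ran from -0.754 to 0.0492 between genotypes on SD, 0.0494 to 0.434 on HFHS, -0.148 to 0.022 between diets in WT and -0.143 to 0.609 in CB1KO, not over 0.1 in every pair of any, so the numbers were not taken to pair the arrays, although they equal the slide column on all 16; 5 of 16 arrays matched best with their own number.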
